A study of Mus musculus with 7 samples.

Results

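Adding Fc-JAG1 to GFI1+ IAHC released from compE was compared with the release alone in 5 of the 7 nascent RNA libraries of the study, picked by their labels: Fc-JAG1 1 and 3 and washout 1, 2 and 3. All 55487 genes of the count table were members, and 10311 of them had at least 10 counts in at least 2 libraries of one condition and were tested. The cells were sorted as CD31+cKIT+GFI1+ from the aorta-gonad-mesonephros (AGM) region of CD1 embryos with the Gfi1:tomato reporter at E11.5. This gate takes the intra-aortic hematopoietic clusters (IAHC) that hold the first hematopoietic stem cells. Cells of every group, controls included, spent the night before in compound E (compE), an inhibitor of γ-secretase, and were then washed and split into sets of 300 to 400 cells. For the next 4 h the washout received DMSO and the Fc-JAG1 group received a recombinant JAG1 fused to an Fc, while the compE group (2 libraries, used here only as a reference) went back into compE. Ethynyl uridine (EU) in all these cultures marked the RNA made in that time, which was captured on beads, pre-amplified and sequenced. The labels and the methods disagree on the unit of both concentrations, and on whether a number in a library's name is an embryo or a pool of embryos. Fc-JAG1 2 was left out by the authors.

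A Notch receptor is cut by γ-secretase once a ligand on a neighboring cell pulls on it, and the freed intracellular part joins RBPJ on DNA and switches on genes such as Hes1. The same ligand held on the receptor's own cell can block it, which is called cis-inhibition. In the dorsal aorta JAG1 and Notch1 are needed for blood stem cells to form, through factors that include GATA2. The comparison asks which newly made RNAs differ when a soluble JAG1 meets cells whose γ-secretase has just been released.

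The 5 libraries held 21652927 to 32696854 counts and differed widely in the number of genes they caught. At least 10 counts were found for 6265, 12351 and 7585 genes in washout 1, 2 and 3, and for 11600 and 8006 genes in Fc-JAG1 1 and 3. The means were 9803 ± 2541 (SD, n = 2) with Fc-JAG1 and 8734 ± 3201 (SD, n = 3) in the washout, and the groups overlapped (two-sided exact permutation test, p = 0.8, where 10 assignments allow no p below 0.1). Mitochondrially encoded genes took 12.7%, 1.14% and 2.48% of the washout counts and 1.88% and 7.35% of the Fc-JAG1 counts. Over the 3431 genes present in all 5 libraries, the smallest median absolute difference between any pair of libraries was that of washout 2 and Fc-JAG1 1, at 0.504 on the log2 scale. Fc-JAG1 1 and washout 1, which share a number, differed by 1.34, and the Fc-JAG1 libraries by 1.15 from each other.

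Genes of the sort gate were read in most libraries, though not in all. Kit had 6381, 6541 and 18971 counts in the washout and 7722 and 10470 with Fc-JAG1, and Runx1 had 17485, 16525 and 33702 against 29610 and 51298. Gfi1 itself had 0, 12 and 2477 counts in the washout and 2504 and 0 with Fc-JAG1. Pecam1, which encodes CD31, had 18, 3909 and 1186 counts against 5932 and 11. Kit and Runx1 were therefore high throughout, whereas Gfi1 and Pecam1 switched between high counts and close to 0 within both groups. Of 13 macrophage markers 6 were tested, and their summed level was 421 to 524 CPM (counts scaled to library size with TMM factors) in the washout and 501 to 507 with Fc-JAG1, while C1qb and C1qc were at 0 in all 5 libraries. Of 13 erythrocyte markers 5 were tested, with summed levels of 25.1, 350 and 44.1 CPM in the washout and 95.5 and 1.65 CPM with Fc-JAG1. Of the markers of mesenchyme 1 of 14 was tested, and of neural cells and epithelium 0 of 12 and 0 of 10. In such bulk libraries, fewer cells of a type and less RNA per cell cannot be told apart.

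Presence was set by 10 raw counts, and the presence in the 3 washout libraries divided the tested genes. Of the 10311 genes, 4193 (40.7%) were present in every washout library. A further 1812 (17.6%) were under 10 counts in both washout 1 and washout 3: 1476 of these were read in washout 2 only, and 336 in no washout library. Most of the others were missed by 1 washout library, with 2625 present in washout 2 and 3 and 1414 in washout 1 and 2. These classes are defined on the washout values, so a difference from the washout within them is a description. The calls counted by class below come from the fit over all genes, and nothing is read from their direction within a class.

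Genes of the first class were read in the other conditions as well. Of the 4193 genes, 97.2% were present in Fc-JAG1 1 and 83.2% in Fc-JAG1 3, and the compE libraries, which had no part in the definition, gave 84.5% and 97.8%. The genes of washout 2 only passed the filter because both libraries of another condition held them, so their shares are bounded by that choice. In the whole count table, before any filter, 4119 genes were present in washout 2 and in neither other washout library. Of these, 57.8% were present in Fc-JAG1 1 and 29.7% in Fc-JAG1 3, against 30.1% in compE 1 and 61.3% in compE 2. Fc-JAG1 1 and compE 2 thus read about as many of these genes as each other, and so did Fc-JAG1 3 and compE 1. The 2 libraries that held more of these genes were also those with the most genes detected in their own condition.

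Levels followed the same division. Genes in all 5 libraries had median levels of 6.63 to 7.06 on the log2(CPM + 0.5) scale in the washout and 6.72 and 6.91 with Fc-JAG1, so the medians of the groups overlapped. In the class of washout 2 only, the median was 4.67 in washout 2, 4.61 in Fc-JAG1 1 and 2.24 in Fc-JAG1 3. Within this class Fc-JAG1 1 lay 0.08 below washout 2 and Fc-JAG1 3 lay 0.90 below it (medians of log2 differences of −0.08 and −0.90), whereas both lay above washout 1 and washout 3, which hold next to nothing of these genes by definition. In the class of no washout library the medians were 0.68 and 0.07 with Fc-JAG1 and 0.28 and 0.66 with compE. Genes of this class were tested only where both Fc-JAG1 or both compE libraries held them.

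**Figure D1:**
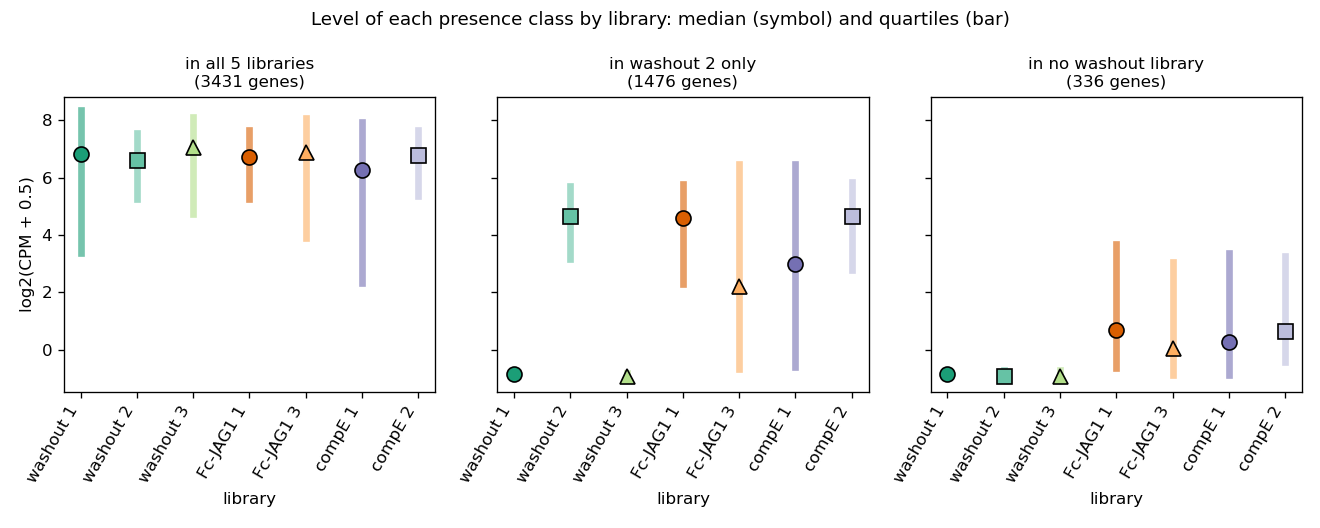
Median (symbol) and quartiles (bar) of log2(CPM + 0.5) per library (x axis) for genes present in all 5 libraries, in washout 2 only and in no washout library. Washout 2 and Fc-JAG1 1 sit side by side at 4.67 and 4.61 in the middle panel, while washout 1 and washout 3 are at the floor of the scale, where the class places them.

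The quasi-likelihood test of edgeR, with terms for the library number and the condition, called 0 genes of 10311 (percent called 0). At an unadjusted p under 0.05 it held 401 higher (3.89%) and 125 lower (1.21%) genes. The Wald test of DESeq2 with the same terms, which is the test of the study, called 1619 higher (15.7% of the genes tested) and 489 lower (4.74%), together 20.4%. Without the term for the library number DESeq2 called 154 higher (1.49%) and 234 lower (2.27%), together 3.76%, and 142 and 163 of these were among the calls of the fit with the term. Only the 5 libraries, without the term, gave 176 higher (1.84%) and 251 lower (2.62%) of 9569 genes, together 4.46%. For edgeR without the term 1 gene was called, a higher one (0.0097%). The DESeq2 fit of all 7 libraries without the term gave no p to 878 of the 1619 higher genes, since a filter on Cook's distance set them aside as having an outlying library. With this filter off it called 149 higher and 278 lower genes, so the lower count of higher genes did not come from the genes set aside.

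The calls were spread unevenly over the classes. Of the genes in every washout library, DESeq2 with the term for the library number called 68 higher (1.62%) and 298 lower (7.11%). Presence in every washout library favors lower calls, since a gene missing from both Fc-JAG1 libraries can there only be lower, and 46 of the 60 genes of that kind were among the 298. Of the 1812 genes absent from washout 1 and 3, it called 928 higher and 0 lower, the direction that this definition favors in turn. Without the term, the calls among those 1812 were 143 higher and 0 lower, of which 124 belonged to the class of no washout library and 19 to that of washout 2 only. Washout 2 has no Fc-JAG1 partner of its own number. In a least-squares fit of the same terms, washout 2 has a weight of −0.133 in the difference and washout 1 and 3 have −0.4 and −0.467, while without the term each has −0.333.

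**Figure D2:**
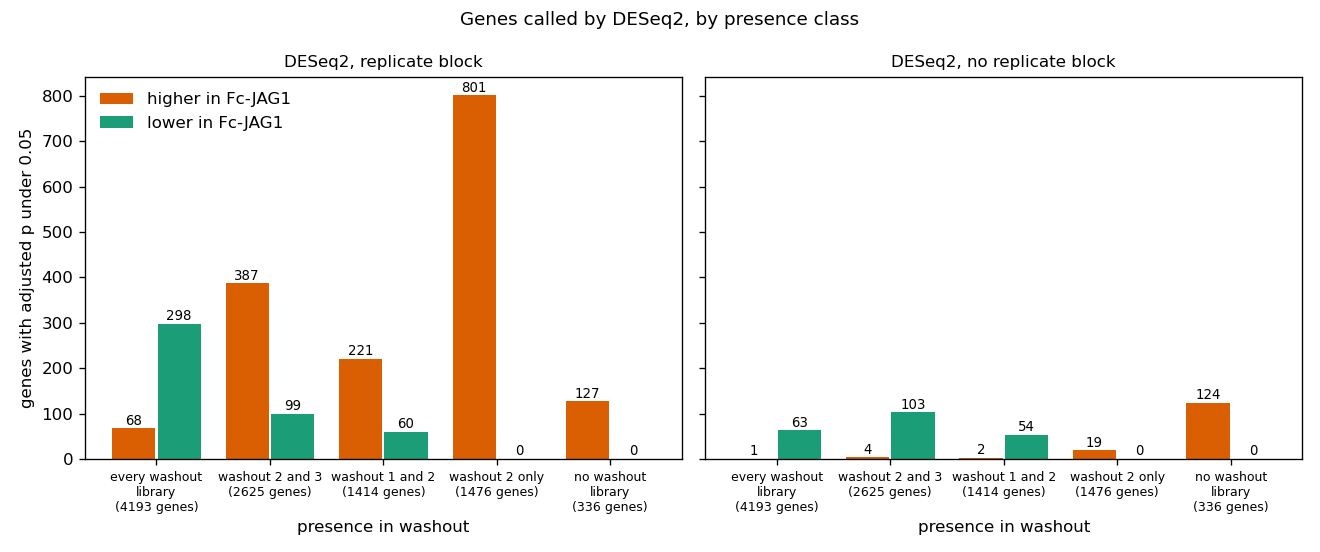
Number of genes with a DESeq2 adjusted p under 0.05 (y axis), higher (orange) and lower (green) in Fc-JAG1, by presence class (x axis), with the term for the library number (left) and without it (right). The class of washout 2 only goes from 801 higher genes to 19, while that of no washout library has 127 and 124. Genes of the last class were tested only where both Fc-JAG1 or both compE libraries held them, which favors higher calls.

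Of the 3431 genes present in all 5 libraries, both Fc-JAG1 libraries lay above the washout range in 245 (7.14%) and below it in 337 (9.82%), beside 1081 (10.5%) and 706 (6.85%) of all genes tested. Only 10 assignments of the 5 libraries to the groups exist, so such shares can arise without a difference between the conditions. The median log2 fold change of the 3431 genes in edgeR was −0.12, and DESeq2 called 68 of them higher and 133 lower with the term for the library number, against 0 and 11 without it. Restricting the fit to the 3035 genes with at least 10 counts in each of the 7 libraries turned this split: DESeq2 then called 115 higher (3.79%) and 66 lower (2.17%), together 5.96%, and edgeR 0 with 67 and 36 at an unadjusted p under 0.05.

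Among the genes in all 5 libraries and with a small edgeR p on the higher side, Rad51b, Phf2 and Tet2 had low counts in washout 1 and 3. Rad51b (ENSMUSG00000059060, GRCm38 chr12:79297282-79814690), a DNA repair gene of homologous recombination, had 65, 2714 and 18 counts in the washout and 4260 and 18730 with Fc-JAG1. Phf2, a histone demethylase, had 10, 1042 and 23 counts against 2030 and 4066, and Tet2, which oxidizes 5-methylcytosine in DNA, had 26, 2384 and 15 against 3760 and 1871. For Rad51b and Phf2 every Fc-JAG1 value is above every washout value as a count, and for Tet2 this holds only after scaling, at 103 and 79.3 CPM against 66.1 CPM in washout 2. The compE libraries held 1371 and 16529 counts of Rad51b, 3 and 3847 of Phf2 and 22 and 3411 of Tet2. In compE 2, at 427, 99.3 and 88.0 CPM, these genes were thus also above every washout value. The log2 fold change of Rad51b was 6.69 ± 2.34 (SE, edgeR adjusted p = 0.828; DESeq2 adjusted p = 4.99e-05), and of Phf2 8.01 ± 3.43 (edgeR adjusted p = 0.83; DESeq2 adjusted p = 0.00116). Tet2 was at 6.80 ± 3.02 with a DESeq2 adjusted p of 0.00134. All 3 stayed called by DESeq2 when any 1 library was left out. Without the term for the library number DESeq2 called none of the 3, and with the Cook's filter off Rad51b had an adjusted p of 0.0925, Phf2 of 0.613 and Tet2 of 0.886.

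Other genes on this side were less even. Ccna2, which encodes cyclin A2 of S phase, had 765, 10566 and 583 counts against 13574 and 10974, and its DESeq2 call (adjusted p = 0.00886) was lost without Fc-JAG1 1 (0.277), Fc-JAG1 3 (0.0959) or compE 2 (0.291). Vti1a, a SNARE protein of vesicle fusion, had 16, 14167 and 17124 counts against 7863 and 40264, and Gnai3, an inhibitory G protein subunit, had 17, 8427 and 1842 against 7664 and 7998. The low value of these genes lies in washout 1, and their groups overlap. CT010467.1, annotated as ribosomal RNA and so uncertain in its mapping, had the smallest edgeR p of all genes and was the 1 gene that edgeR called without the term for the library number (log2 fold change 1.24 ± 0.24, adjusted p = 0.0336). It had 51438, 218925 and 28815 counts in the washout and 200180 and 245768 with Fc-JAG1, so that washout 2 lay among the Fc-JAG1 values.

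On the lower side the counts were high in all 3 washout libraries. Mef2d (GRCm38 chr3:88142372-88172086), a MADS-box transcription factor, had 20929, 5595 and 17280 counts in the washout and 3328 and 108 with Fc-JAG1. Rassf3, a Ras-association domain protein, had 8021, 1865 and 3975 counts against 234 and 38. In both genes each Fc-JAG1 value lies below each washout value, at 47.96 ± 61.4 CPM (SD, n = 2) against 662 ± 532 CPM (SD, n = 3) for Mef2d and 4.02 ± 3.40 against 219.7 ± 218 CPM for Rassf3. With compE, Mef2d was at 34.3 and 83.7 CPM, also below its lowest washout value of 155 CPM. Rassf3 was at 77.0 and 30.9 CPM with compE, on either side of its lowest washout value of 51.7 CPM. The log2 fold changes were −4.40 ± 1.69 for Mef2d and −6.02 ± 2.75 for Rassf3 (edgeR, SE, adjusted p = 0.83 for both). DESeq2 called both with the term for the library number (adjusted p = 0.000397 and 1.94e-05) and without it (0.00741 and 0.0022), and both lost the call when Fc-JAG1 1 was left out (0.0662 and 0.0859). Mctp1, a calcium-binding membrane protein, was also called in both fits (1.16e-05 and 0.0147), and lost the call without Fc-JAG1 1 (0.522) or compE 2 (0.165).

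For a further set of lower genes the low value lay in Fc-JAG1 3. Syk, a tyrosine kinase downstream of immune receptors, had 14043, 11826 and 10586 counts in the washout and 8447 and 38 with Fc-JAG1. Pgd, an enzyme of the pentose phosphate pathway, had 16383, 20778 and 21845 against 18002 and 1700. Psmb1, a proteasome subunit, had 9210, 9650 and 8294 against 6408 and 0. Fc-JAG1 1 held many counts of each of these 3 genes. DESeq2 called Syk (adjusted p = 0.00246), Pgd (0.00131) and Psmb1 (0.0178) with the term for the library number and none of them without it (0.296, 0.305 and 0.867). With the term, the call of Syk was lost without compE 2 (0.0915), and that of Pgd without Fc-JAG1 1 (0.534) or compE 2 (0.479). Slc24a3, an exchanger of sodium, calcium and potassium, showed the reverse, with 29166, 23734 and 38925 counts against 5483 and 23439, and its call (0.0351) was lost without washout 1 (0.149), Fc-JAG1 1 (0.993) or compE 2 (0.55).

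Among the genes read in washout 2 and in neither other washout library were a subunit of γ-secretase, the enzyme that compE blocks, and a coactivator of Notch. Ncstn, the subunit that receives the substrate (GRCm38 chr1:172066013-172082795), had 0, 4747 and 8 counts in the washout and 11697 and 5786 with Fc-JAG1, and Kat2b, a histone acetyltransferase, had 0, 1248 and 4 against 1265 and 5527. Both were therefore present in washout 2 and both Fc-JAG1 libraries and next to absent in washout 1 and 3. The compE libraries held 7307 and 9373 counts of Ncstn and 14 and 1306 of Kat2b. In washout 2 the levels were 132 CPM for Ncstn and 34.6 CPM for Kat2b, against 321 and 245 CPM and 34.7 and 234 CPM with Fc-JAG1.

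Ncstn above and the further genes of this class were picked by the highest lower Fc-JAG1 level, so their pattern is set by the class and that choice. Tbrg1, a growth inhibitor of the TGF-β response, had 0, 4623 and 0 counts in the washout and 7236 and 4388 with Fc-JAG1, and Rgs18, which dampens G protein signaling in blood cells, had 0, 4174 and 0 against 6388 and 5967. Mdh1, the cytosolic malate dehydrogenase, had 0, 3509 and 0 against 6382 and 4884. The compE libraries parted on the last pair, with 1 and 6181 counts of Rgs18 and 1 and 4177 of Mdh1. Arid3a, an AT-rich DNA-binding factor, had 1, 5789 and 1 counts against 6445 and 4192, and Bid, a pro-apoptotic BCL2 relative, had 0, 7130 and 0 against 7723 and 4054. Washout 1 and 3 held at most 1 count of each of Tbrg1, Rgs18, Mdh1, Arid3a and Bid. Arid3a was at 160.4 CPM in washout 2 and at 177 and 178 CPM with Fc-JAG1, so that the difference lies in which washout libraries held the gene.

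No washout library held 10 counts of 336 tested genes, and 174 of these were present in both Fc-JAG1 libraries. The compE libraries, set against the same washout, gave 190 such genes, and 72 of the 174 were present in neither compE library. Selenop, a secreted carrier of selenium (GRCm38 chr15:3268547-3280508), had 0 counts in all washout and compE libraries and 2270 and 2870 with Fc-JAG1. Against a floor of 3 counts per washout library this is 757-fold higher. Such a fold is not a lower bound, since the floor covers counting error only and Gfi1, for example, switched to 0 within both groups. Zfp518b, a zinc finger gene, had 0 counts in the washout and 1545 and 4464 with Fc-JAG1 (953-fold higher against that floor), but also 4513 and 1046 with compE. Ankrd9, an ankyrin repeat gene, had 0 counts in the washout, 1475 and 975 with Fc-JAG1 (337-fold higher against that floor) and 0 and 977 with compE. Selenop was thus read with Fc-JAG1 and in no other library, whereas Zfp518b was read in all libraries of Fc-JAG1 and compE.

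Further genes of this class were Slc16a3, a lactate exporter, with 0, 6 and 0 counts against 1628 and 951, and Efcab11, an EF-hand gene, with 2, 2 and 1 against 1981 and 1736. The compE libraries held 0 and 811 counts of Slc16a3 and 659 and 1683 of Efcab11. Gm10384, a long noncoding RNA, had 2, 2 and 0 counts against 1526 and 3143, and 0 in both compE libraries. Cd14, a co-receptor for bacterial lipopolysaccharide, and Srcap, which exchanges histone H2A.Z, also belong here: Cd14 had 0 counts in the washout and 2059 and 311 with Fc-JAG1, and Srcap 0 against 197 and 1426. With compE, Cd14 had 0 and 664 counts. The class holds fewer protein-coding genes than that of every washout library (75.8% against 94.4%).

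The reverse pattern, presence in every washout library and fewer than 10 counts in both Fc-JAG1 libraries, was found for 60 genes, and 50 genes were missing from both compE libraries in the same way. Cd93, a lectin-like receptor of endothelium and early blood progenitors (GRCm38 chr2:148436640-148443563), had 2733, 804 and 3144 counts in the washout and 0 and 0 with Fc-JAG1. This is 933-fold lower against a floor of 3 counts per library, again not a lower bound. The compE libraries held 7693 and 883 counts of Cd93. Trp53i13, a p53-inducible gene, had 2403, 921 and 1742 counts against 0 and 0 (723-fold lower against that floor), and 1696 and 2122 with compE. Dlg4, the scaffold protein PSD-95 (GRCm38 chr11:70016942-70047522), had 3248, 847 and 3925 counts against 6 and 2, and 526 and 630 with compE. These 3 genes were read in all 5 libraries without Fc-JAG1 and in neither library with it. Slc30a6, a zinc transporter, and Gdpgp1, a GDP-glucose phosphorylase, had 5157, 675 and 1065 and 6756, 573 and 3671 counts in the washout and at most 1 with Fc-JAG1, but in compE 1 they had only 2 and 1. Prorsd1 had 3994, 743 and 2198 counts against 6 and 0.

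**Figure D3:**
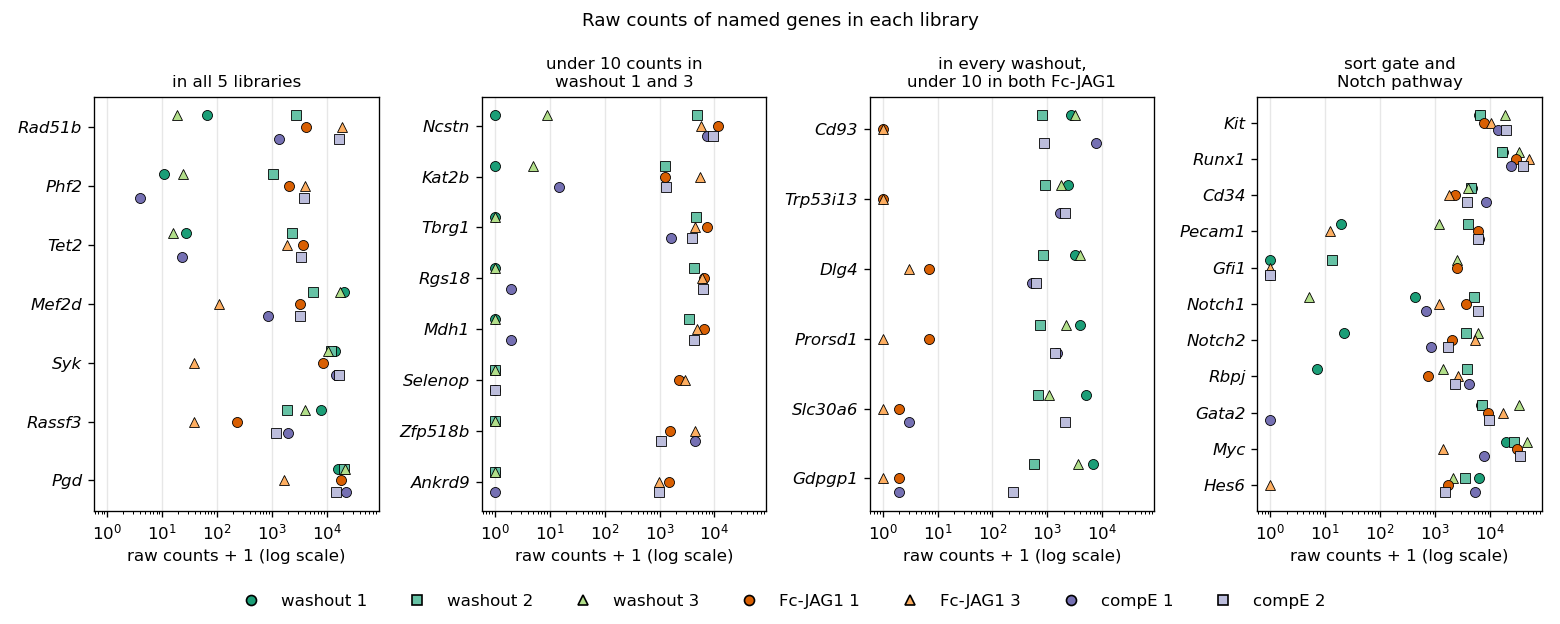
Raw counts + 1 (x axis, log scale) of named genes (y axis) in each washout (green), Fc-JAG1 (orange) and compE (violet) library, with the symbol showing the library number. In the second panel Ncstn and Kat2b have their washout 2 square beside the Fc-JAG1 symbols and their washout 1 and 3 symbols at 0 to 8 counts, while in the third panel Cd93, Trp53i13 and Dlg4 have both Fc-JAG1 symbols at 0 to 6 counts.

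Promoter windows of RefSeq (GRCm38.p6, from 250 bases before to 50 bases after a start) are shown for 1 gene of each pattern: Rad51b for all 5 libraries, Tbrg1 for washout 2 only, H2-Q7 for no washout library and Dlg4 for every washout library and no Fc-JAG1 library. They were picked because they hold the 6 letters TGGGAA, the core of the sequence that RBPJ binds, or its reverse complement TTCCCA, which are in capitals. In Dlg4 the first match is part of the longer GTGGGAA, read as TTCCCAC on this strand, and its window starts from a RefSeq start that lies 261 bases from that of GENCODE.

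Rad51b (chr12:79297032-79297331, plus strand): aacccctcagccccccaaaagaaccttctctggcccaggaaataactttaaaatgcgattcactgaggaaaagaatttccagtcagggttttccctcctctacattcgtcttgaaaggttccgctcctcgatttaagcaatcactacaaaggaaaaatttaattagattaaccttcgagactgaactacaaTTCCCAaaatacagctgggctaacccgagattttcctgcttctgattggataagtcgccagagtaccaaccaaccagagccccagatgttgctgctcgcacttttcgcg
Tbrg1 (chr9:37657263-37657562, minus strand): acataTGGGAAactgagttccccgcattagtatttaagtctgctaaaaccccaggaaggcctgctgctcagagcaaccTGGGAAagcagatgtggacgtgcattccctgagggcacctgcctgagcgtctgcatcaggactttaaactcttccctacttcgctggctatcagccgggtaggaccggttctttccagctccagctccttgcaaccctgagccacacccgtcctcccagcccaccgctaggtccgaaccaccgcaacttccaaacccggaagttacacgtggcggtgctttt
H2-Q7 (chr17:35438905-35439204, plus strand): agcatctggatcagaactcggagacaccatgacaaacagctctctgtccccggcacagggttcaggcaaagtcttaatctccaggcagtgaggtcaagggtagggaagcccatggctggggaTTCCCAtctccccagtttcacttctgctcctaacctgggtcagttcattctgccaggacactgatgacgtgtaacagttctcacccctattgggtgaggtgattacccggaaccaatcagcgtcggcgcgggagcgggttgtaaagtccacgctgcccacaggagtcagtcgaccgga
Dlg4 (chr11:70016953-70017252, plus strand): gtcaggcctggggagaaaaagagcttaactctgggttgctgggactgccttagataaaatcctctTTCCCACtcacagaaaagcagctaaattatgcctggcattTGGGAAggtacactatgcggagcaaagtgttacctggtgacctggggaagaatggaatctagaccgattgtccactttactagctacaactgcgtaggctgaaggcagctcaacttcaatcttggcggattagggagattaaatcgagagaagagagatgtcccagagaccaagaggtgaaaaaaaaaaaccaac

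The first matches lie 59 bases before the start in Rad51b (position −59), at −245 and −172 in Tbrg1, at −128 in H2-Q7 and at −185 and −145 in Dlg4. Such matches are common: on either strand, TGGGAA is found in 25.6% of all 32851 promoter windows of this length and GTGGGAA in 6.38%. No comparison between the classes was drawn, since only 75.3% of the tested genes had a window, which makes that check void. Gene length could be compared. The median exon length was 5185 bases in the class of every washout library, 4464 in washout 2 only and 3401 in no washout library. It was 4354 in washout 2 and 3 and 4672 over all genes tested, so it did not fall steadily with presence. The median gene span of the first 3 classes was 34440, 25328 and 27716 bases, in another order.

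Notch receptors and their partners were carried by different libraries. Notch1, the receptor of the aorta, had 424, 5188 and 4 counts in the washout and 3623 and 1157 with Fc-JAG1, and Notch2 had 21, 3630 and 6023 against 1989 and 5218. Rbpj, the DNA-binding partner, had 6, 3731 and 1409 counts against 728 and 2568. The groups overlapped for all 3, and the log2 fold changes of 3.56 ± 2.87, 1.07 ± 2.51 and 0.81 ± 2.89 (edgeR, SE) had adjusted p of 0.91, 1 and 1, with DESeq2 adjusted p of 0.0638, 0.741 and 0.765. For Notch1 the DESeq2 value depended on single libraries: it was called higher without washout 1 (adjusted p = 0.00782), Fc-JAG1 1 (0.0151) or compE 1 (0.0473), and its log2 fold change ranged from 1.32 without washout 3 (adjusted p = 0.545) to 8.54 without Fc-JAG1 1. Jag1, the ligand of the cells themselves, had 1789, 12 and 3 counts against 21 and 7, so that it was read at more than 21 counts in washout 1 and in no other of the 5 libraries. Dll4, the other ligand, had at most 13 counts in any library.

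Of the 41 tested genes of Notch receptors, ligands and processing (52 listed), 15 (36.6%) were in every washout library and 6 (14.6%) absent from washout 1 and 3, beside 40.7% and 17.6% of all genes tested. DESeq2 called 6 higher (14.6%, beside 15.7% of all genes) and 0 lower with the term for the library number, and 0 in either direction without it. They included Ncstn, Kat2b, Poglut1, Dvl3 and Tle3, and 4 of the 6 were absent from washout 1 and 3. With either Fc-JAG1 library left out, Ncstn and Kat2b no longer met the study's rule of 10 counts in 2 libraries of the washout or of Fc-JAG1 and were not called, although their DESeq2 adjusted p stayed between 0.00314 and 0.0388. The median log2 fold change of the list in edgeR was 0.10, beside 0.44 over all genes tested.

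Few Notch targets could be tested. Hes1, the best-known target, had 0, 748 and 1 counts in the washout and 1867 and 0 with Fc-JAG1, and 0 and 977 with compE, and did not pass the filter. Hey1 was at 0 in all libraries, which allows up to 3 counts in each. Gata2, a factor of blood stem cell formation, had 6718, 7062 and 33387 counts against 9033 and 16991 (log2 fold change −0.15 ± 1.24, edgeR adjusted p = 1), and it had 0 and 9725 with compE. Myc had 19111, 27439 and 47501 counts against 30302 and 1369 (−1.74 ± 0.96, edgeR adjusted p = 0.83; DESeq2 adjusted p = 0.0794). The direction of Gata2 turned with the scaling, at 0.16 with total counts, and without Fc-JAG1 3 the value of Myc was 0.0048. Hes6, an HES family member that opposes HES1, had 6216, 3533 and 2072 counts against 1680 and 0, and each Fc-JAG1 value lay below each washout value. DESeq2 called Hes6 lower with the term for the library number (−6.29, adjusted p = 0.00689) and not without it (adjusted p = 0.482). Of the 7 targets tested (18 listed) DESeq2 called 0 higher and 2 lower, Hes6 and Gata3, beside 15.7% and 4.74% of all genes. Gata3, with 1, 287 and 4413 counts against 0 and 3, was the 1 still called without the term. With the term, it lost its call without Fc-JAG1 3 (DESeq2 log2 fold change −7.62). The compE libraries held 3 and 1 counts of Gata3. Without washout 2 or washout 3 Gata3 did not pass the filter.

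Factors of blood stem cell emergence were held by most libraries. Of 24 tested genes, 18 (75%) were in every washout library, and DESeq2 called 0 higher and 0 lower in both fits, with 0 and 2 at an unadjusted p under 0.05 with the term for the library number. The edgeR median was −0.24. Runx1, the master factor of the endothelial-to-hematopoietic transition, was at 0.37 ± 0.51 (edgeR, SE, adjusted p = 1), and its direction turned with the size factors of DESeq2 (−0.01). Endothelial and arterial genes were thinner, with 10 of 22 tested and 3 in every washout library. DESeq2 called 3 lower (30.0%, beside 4.74%) and 0 higher: Cd93, Tie1 and Gja5, which encodes connexin 40 of arteries. Gja5 was low throughout, with 3, 49 and 41 counts against 0 and 0, and Cd93 and Gja5 were the 2 also called without the term. With the term, Gja5 lost its call without Fc-JAG1 3 (adjusted p = 0.0673) and had no adjusted p without Fc-JAG1 1 or compE 2. The edgeR median of this list was 1.80, so its median and its calls differ in sign. Cd34, a surface marker shared by endothelium and blood progenitors, had 4712, 4549 and 4012 counts against 2280 and 1811, below the washout range in both, at −1.62 ± 2.00 (edgeR, SE, adjusted p = 0.99; DESeq2 adjusted p = 0.21).

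Lists of cell division genes held more higher than lower calls with the term for the library number. Among 46 tested genes of G1/S, 10 were called higher (21.7%) and 1 lower by DESeq2, and of 52 tested G2/M genes 13 higher (25%) and 3 lower, beside 15.7% and 4.74% of all genes. Without the term it called 0 in either direction in both lists. Of the 10 and 13 higher genes, 3 and 6 were absent from washout 1 and 3. Ncapg, a condensin subunit, had 0, 560 and 1 counts in the washout and 4022 and 3158 with Fc-JAG1, and 0 and 3421 with compE. Its level with Fc-JAG1, 122 ± 16.5 CPM (SD, n = 2), was above that of washout 2, 15.5 CPM. Ncapd2, another condensin subunit of the G2/M list, went the other way, with 16055, 5761 and 9168 counts against 6426 and 10. DESeq2 called Ncapd2 lower with the term (adjusted p = 0.00102) and not without it (0.287), and its groups overlapped. Over the members in all 5 libraries the edgeR medians were 0.07 for G1/S and −0.95 for G2/M genes, so the sign of the G2/M list, 1.39 over all tested members, turned.

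Chromatin remodeling genes and autophagy genes differed in how the washout held them. Of 53 tested chromatin genes 33 (62.3%) were in every washout library and 5 (9.43%) absent from washout 1 and 3, and of 37 tested autophagy genes 10 (27.0%) and 11 (29.7%). DESeq2 called 10 higher and 1 lower in the first list (18.9% and 1.89%) and 9 higher and 0 lower in the second (24.3% and 0%), beside 15.7% and 4.74% of all genes. Without the term the calls were 1 higher and 0 lower (Srcap), and 1 higher and 1 lower (Atg4d and Atg14). Ssrp1, a subunit of the histone chaperone FACT, had 14, 7699 and 314 counts in the washout and 12613 and 7749 with Fc-JAG1, and its DESeq2 call was lost without washout 3 (adjusted p = 0.105), Fc-JAG1 1 (0.328) or Fc-JAG1 3 (0.11). Tfe3, a transcription factor of lysosome and autophagy genes, had 1, 2264 and 0 counts against 2782 and 5634, and Atg4d, a protease that processes ATG8 proteins, had 7, 1 and 1 against 1229 and 3292 and lost its call without washout 3 (0.0999). Atg14, a subunit of the autophagy PI3-kinase, went the other way, with 4, 425 and 3878 counts against 7 and 3.

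Immune and stress lists held called genes of several classes. DESeq2 called 8 of 41 tested cytokine and innate immune genes higher (19.5%) and 0 lower, 5 of 20 myeloid genes higher (25%) and 0 lower, 5 of 23 immediate early and stress genes higher (21.7%) and 2 lower, and 3 of 13 genes of MHC class I presentation higher (23.1%) and 1 lower, beside 15.7% and 4.74% of all genes. Of these higher genes, 3, 3, 2 and 3 were absent from washout 1 and 3. Without the term the counts in these lists were 0, 1 (Cd14), 0 and 1 (H2-Q7) higher, and 0 lower. Ifngr1, an interferon-γ receptor chain, had 23, 3102 and 4 counts in the washout and 3976 and 6145 with Fc-JAG1. Erap1, which trims peptides for MHC class I, had 0, 1866 and 6 against 4324 and 2913, and Atf3, a stress-induced factor, had 1, 1172 and 0 against 1574 and 4199. In these 3 genes washout 2 held far more counts than washout 1 and 3. H2-Q7, a nonclassical MHC class I gene with near-identical neighbors that make its count uncertain, had 0, 3 and 0 counts against 20 and 32, and lies at GRCm38 chr17:35439155-35443773. B2m was at 0 counts in all 7 libraries and could not be tested. Cebpa, of the myeloid list, had 1, 1370 and 0 counts against 4255 and 1884, and 528 and 629 with compE. DESeq2 called Cebpa higher with the term (adjusted p = 0.000482). Without the term and with the Cook's filter off its adjusted p was 0.811. Of 13 tested p53 targets 2 were called higher (15.4%) and 1 lower (7.69%). Plk3, a stress kinase, had 0, 1300 and 0 counts against 1700 and 10592, whereas Sesn2, a sestrin, had 0, 1941 and 3310 against 2 and 0 and was called lower with the term and without it. Its call with the term was lost without washout 2 (adjusted p = 0.0988), washout 3 (0.514), Fc-JAG1 3 (0.52), compE 1 (0.103) or compE 2 (0.155). Of 12 tested lymphoid genes 1 was called higher and 1 lower (8.33% each) with the term, and 0 and 2 without it, the second being Cd79b, with 0, 385 and 2566 counts against 0 and 0. Of 9 tested interferon-stimulated genes 1 was called higher (11.1%) and 0 lower.

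Genes that every cell uses were held by nearly all libraries. All 31 tested translation factors were in every washout library, as were 70 of 76 ribosomal protein genes, 25 of 31 proteasome genes and 25 of 28 actin cytoskeleton genes. The ribosomal protein list was drawn from the tested genes, so all its members had passed the filter by construction. DESeq2 called 0 translation factors higher and 1 lower (0% and 3.23%), 2 and 1 ribosomal protein genes (2.63% and 1.32%), 3 and 1 proteasome genes (9.68% and 3.23%) and 1 and 2 actin genes (3.57% and 7.14%), beside 15.7% and 4.74% of all genes. None of these was called without the term. Eef2, an elongation factor, had 45422, 57119 and 51235 counts in the washout and 60617 and 31483 with Fc-JAG1 (log2 fold change −0.57 ± 0.28, edgeR adjusted p = 0.83). Eif3b, the called factor, had 31886, 14930 and 14545 counts against 14462 and 6850, and lost its call without washout 1 (adjusted p = 0.0616), Fc-JAG1 1 (0.993) or compE 2 (0.656). Rps10, in contrast to most of its family, had 1, 889 and 0 counts against 1287 and 432. The 9 tested mitochondrial genes were called in neither direction, nor were the sort gate markers, and of 11 tested nuclear and snoRNA-host RNAs 1 was called higher.

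**Figure D4:**
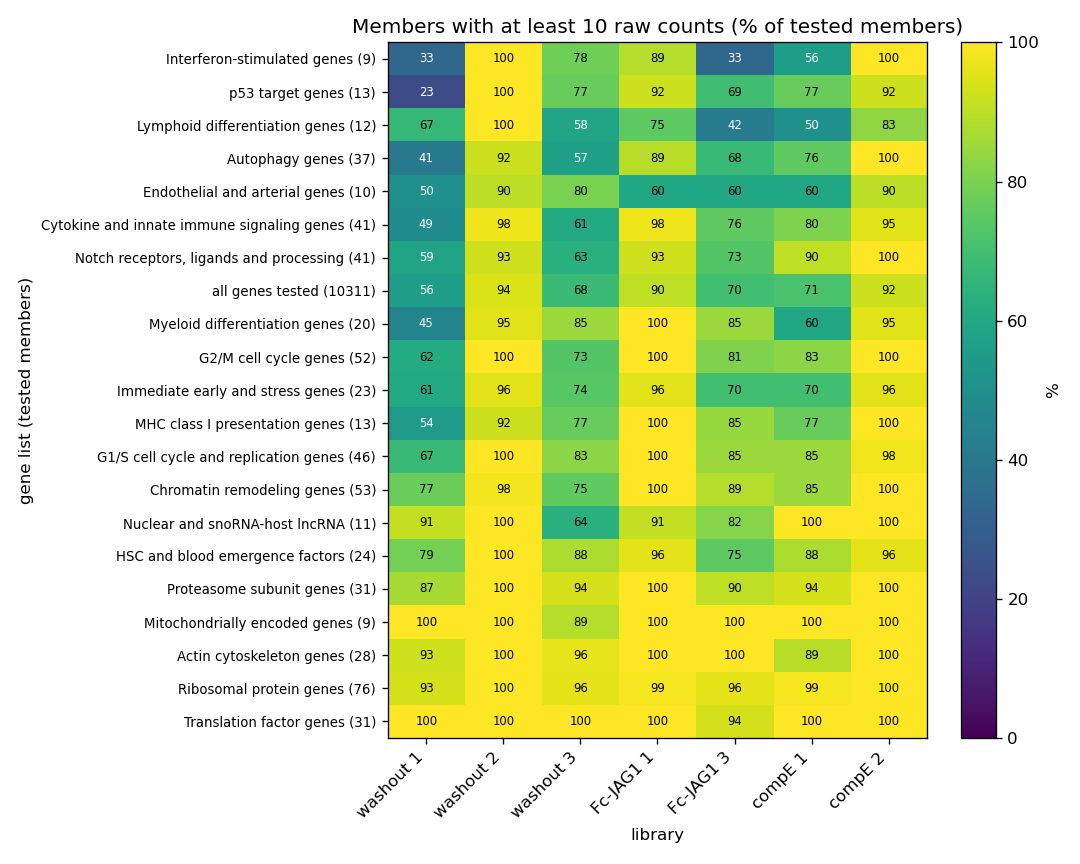
Share of the tested members of each gene list (y axis, number of tested members in brackets) that had at least 10 raw counts in each library (x axis), in percent. Of the 37 autophagy genes, 34 were present in washout 2 and 33 in Fc-JAG1 1 but 15 and 21 in washout 1 and 3, while at least 71 of 76 ribosomal protein genes were present in each library.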

How the data were processed

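The authors trimmed 50 bp single-end reads, aligned them to mm10 (GRCm38) and counted uniquely mapped reads per gene with Ensembl annotation, and the submitters' processing notes name cutadapt 4.2, STAR 2.7.8, Subread 2.0.1 and DESeq2 1.38.3. The deposited raw counts per gene were used as they are. The deposited filtered counts equal them for the 10311 genes that reach 10 counts in 2 or more libraries of a condition, and a deposited table of transformed values was not used. There are 0 columns of other samples. RNA was pre-amplified without molecular identifiers, so counts are not independent molecules, and intervals and floors would cover counting error only. The sources do not state counting by strand, so overlapping genes are uncertain.

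All 7 libraries were fitted with terms for library number and condition. The main test was the quasi-likelihood test of edgeR 4.0.16 with TMM scaling (R 4.3.3), and the Wald test of DESeq2 1.42.0 was the second, both with Benjamini-Hochberg adjustment at 0.05. A DESeq2 call also required 10 counts in 2 libraries of the washout or of Fc-JAG1. The labels give each number as an embryo and the methods describe paired pools, which is where the pairing comes from. Deviations of same-numbered libraries from their group means had correlations of −0.0854 to 0.0915 over 5 pairs. If the numbers do not mark separate pools, p-values measure only the spread between these libraries. CPM are TMM-scaled and use a pseudocount of 0.5 on the log2 scale. Gene positions come from GENCODE M21 (55227 of 55487 identifiers). Scripts were tested on simulated data. Some items are not reported here.

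The named genes were the 8 with the smallest edgeR p on each side among genes in all 5 libraries whose same-numbered pairs moved one way, the 6 with the highest lower Fc-JAG1 level among genes of washout 2 only and of no washout library, the 6 with the highest lowest washout level among genes missing from both Fc-JAG1 libraries, and up to 3 per gene list by edgeR p. Set in advance were also Notch1, Notch2, Jag1, Dll4, Rbpj, Hes1, Hey1, Gata2, Myc, Gfi1, Kit, Pecam1, Runx1, Cebpa and B2m. Others, among them Hes6, Gata3, Psmb1, Rps10 and Cd34, were named after their values were seen, and so were the 4 promoters. The members, classes and gene lists were chosen with earlier results of these data known. Alternatives were the tool, the term for the library number, the scaling, the filter, the presence threshold and leaving out each library.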

Additional observations from a re-analysis of the deposited data

How the results depend on the processing

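The count of edgeR calls was 0 under every alternative run except the likelihood ratio test (132 higher, 3 lower), limma voom (1 lower) and the fit without the replicate block (1 higher), while DESeq2 with the block gave 1619 and 489. The DESeq2 counts fell to 154 higher and 234 lower without the replicate block, to 176 and 251 with the 5 libraries alone, and to 115 and 66 over genes in all 7 libraries, and the lower count fell to 149 over all genes with a count. Leaving out a library gave 633 to 1880 higher and 359 to 1300 lower genes, with the extremes without Fc-JAG1 1 (633 and 1300), compE 1 (1880, 991) and compE 2 (359), and 1262 and 837 lower without washout 1 and 2. The following were chosen after seeing the data. Without the block, leaving out a library gave 0 to 1162 higher genes (0 without Fc-JAG1 3, 26 with Fc-JAG1 1 left out, and 178, 1162 and 143 when washout 1, 2 or 3 was left out) and 112 to 1798 lower genes (112 without Fc-JAG1 3, 1798 with Fc-JAG1 1 left out, and 220, 216 and 167 when it was washout 1, 2 or 3), and without the block and Cook's filter the counts were 149 and 278. A threshold of 1 count put 7249 genes in every washout library and 578 under it in washout 1 and 3, where 50 counts gave 3000. The median log2 fold change over genes in all 5 libraries, −0.12, was −0.50 with DESeq2 size factors, 0.14 with total counts and −0.47 in DESeq2, and −0.25 to 0.21 when a library was left out (0.12 without washout 1, 0.21 without Fc-JAG1 1). Detected genes, 1069 more with Fc-JAG1, ranged from −728 (without Fc-JAG1 1) to 2878, with −165 without washout 1.

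Of the log2 fold changes in edgeR of 63 named genes, these turned in sign. Runx1 was at −0.0094 in DESeq2, −0.0088 with its size factors, and −0.073 to 1.15 when a library was left out. Pecam1 was at 0.68 without the replicate block and at −6.20 to 3.30 when a library was left out. Gfi1 was at 0.60 in DESeq2, 0.23 without the block and −14.09 to 12.77 when a library was left out. Gata2 was at 0.16 with total counts. Leaving out a library gave −0.036 (without washout 1) to 2.34 for Notch2, −0.46 (washout 1) to 2.53 for Rbpj, −0.72 to 1.97 (washout 1) for Gata2 and −7.42 to 1.72 (Fc-JAG1 1) for Jag1. Without Fc-JAG1 1 and Fc-JAG1 3, Myc was at −4.57 and 0.0048, Cd79b at −14.14 and 0.28, and Atg14 at −9.75 and 0.99. The causes were not tested.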
